A study of Mus musculus with 6 samples.

Results

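The 1635 regions described here were open chromatin at the ends of protein-coding genes in mouse embryonic stem cells kept in 2iL, and were no longer listed as open 96 h after 2iL was withdrawn. They were found in ATAC-seq peak lists, which map where a transposase can insert sequencing adapters into DNA. Intervals of the 2iL, 48 h and 96 h lists were merged where they overlapped by at least 1 bp, which gave 131410 regions on mm10. A region was a member if it held a 2iL interval and no 96 h interval, whatever its state at 48 h, and if its midpoint lay no more than 1 kb from the start or far end of a RefSeq gene that codes for protein. Of 14961 such gene-end regions in the 2iL list, 13326 also had a 96 h interval and are called kept. The 1635 others are called lost. Presence in 2iL and absence at 96 h chose the regions, so their loss is a description and not a result.

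All cells were of the E14 line, an established mouse embryonic stem cell line, grown on gelatin in N2B27 medium. The 2iL group had CHIR99021 (3 uM, a GSK3 inhibitor), PD0325901 (1 uM, a MEK inhibitor) and the cytokine LIF in that medium, and is labelled untreated. The 48 h and 96 h groups were plated in 2iL, which was exchanged the next day for N2B27 alone, and were collected 48 or 96 hours later. Each group had 2 samples, A and B, of 100000 live cells each, and nothing says that A and B were separate cultures. Samples A and B share 1 list, so each group gave 1 value per region, no spread between replicates could be measured, and no test between groups is possible. Brackets below hold 95% binomial intervals (exact, Clopper-Pearson). These include no error beyond counting and take each region as independent of its neighbours.

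The ends of a gene differ in what opens them. At the start, general transcription factors and RNA polymerase assemble on a promoter, and many mammalian promoters are CpG islands, which stay open in most cell types whether or not the gene is active. Promoters with few CpG dinucleotides are opened mainly in the cell types that use them, and the CpGs of many germ-cell promoters are methylated as cells of the embryo leave the naive pluripotent state. Open sites near the far end of a gene, where transcription stops, are more often enhancers or insulators. When 2iL is withdrawn, embryonic stem cells leave the naive state, the transcription factors that maintain it are lost, and de novo DNA methyltransferases become active.

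The promoters of 10 genes are printed first because most of them show what set apart the lost starts that overlapped a RefSeq promoter, a low density of CpG dinucleotides. Each is the RefSeq window of 250 bases before and 50 after the transcription start, on GRCm38.p6 (the assembly of mm10), 5′ to 3′ on the strand of the gene, and capitals mark each CpG. The first 6 are the strongest by 2iL fold enrichment among lost starts that the naming rule selects and that overlap a RefSeq window of their gene. They are Zfp640 (chr13:66680754-66681053, minus strand), Gm15455 (chr1:33838865-33839164, minus), Zfp977 (chr7:42592496-42592795, minus), Pdcl2 (chr5:76331107-76331406, minus), 4931408C20Rik (chr1:26687411-26687710, minus) and 1700013H16Rik (chrX:53757782-53758081, minus).
Zfp640: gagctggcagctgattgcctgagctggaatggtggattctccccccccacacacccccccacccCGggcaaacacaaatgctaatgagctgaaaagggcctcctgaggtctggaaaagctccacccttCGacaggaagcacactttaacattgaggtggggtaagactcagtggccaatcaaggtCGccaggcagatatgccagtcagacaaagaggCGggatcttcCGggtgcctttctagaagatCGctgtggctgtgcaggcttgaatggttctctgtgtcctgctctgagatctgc
Gm15455: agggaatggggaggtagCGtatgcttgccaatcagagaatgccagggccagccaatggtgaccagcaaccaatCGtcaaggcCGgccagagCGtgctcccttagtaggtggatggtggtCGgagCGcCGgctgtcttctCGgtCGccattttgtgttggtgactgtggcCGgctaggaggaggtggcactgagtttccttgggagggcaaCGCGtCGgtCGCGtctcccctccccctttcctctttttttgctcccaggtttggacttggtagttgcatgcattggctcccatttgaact
Zfp977: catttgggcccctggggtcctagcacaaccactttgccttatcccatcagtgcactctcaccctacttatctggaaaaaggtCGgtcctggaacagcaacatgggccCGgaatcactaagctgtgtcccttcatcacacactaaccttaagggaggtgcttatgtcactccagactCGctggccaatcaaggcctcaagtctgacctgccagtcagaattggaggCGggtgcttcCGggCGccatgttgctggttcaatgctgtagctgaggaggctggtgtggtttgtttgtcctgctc
Pdcl2: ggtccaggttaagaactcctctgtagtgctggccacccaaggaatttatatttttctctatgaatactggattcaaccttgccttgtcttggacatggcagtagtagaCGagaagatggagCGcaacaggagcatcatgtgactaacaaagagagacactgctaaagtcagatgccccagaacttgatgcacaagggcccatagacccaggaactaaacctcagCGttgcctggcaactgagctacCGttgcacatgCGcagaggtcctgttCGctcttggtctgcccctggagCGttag
4931408C20Rik: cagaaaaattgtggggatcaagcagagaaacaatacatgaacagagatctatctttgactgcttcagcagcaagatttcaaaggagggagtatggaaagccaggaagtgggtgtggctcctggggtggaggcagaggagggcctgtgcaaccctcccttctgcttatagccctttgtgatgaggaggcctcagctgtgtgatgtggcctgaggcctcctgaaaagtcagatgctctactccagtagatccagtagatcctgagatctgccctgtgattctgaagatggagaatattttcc
1700013H16Rik: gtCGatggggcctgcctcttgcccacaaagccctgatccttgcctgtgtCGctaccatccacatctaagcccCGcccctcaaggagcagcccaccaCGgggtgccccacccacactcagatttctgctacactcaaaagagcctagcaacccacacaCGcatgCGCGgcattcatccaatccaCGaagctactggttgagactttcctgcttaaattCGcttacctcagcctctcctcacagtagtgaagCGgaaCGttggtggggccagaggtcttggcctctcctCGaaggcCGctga

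Another 4 were picked after their values were seen, as genes with a known role in pluripotent or germ cells. They are Klf17 (chr4:117765617-117765916, minus), Sohlh2 (chr3:55181794-55182093, plus), Spp1 (chr5:104434861-104435160, plus) and Tcl1 (chr12:105222688-105222987, minus).
Klf17: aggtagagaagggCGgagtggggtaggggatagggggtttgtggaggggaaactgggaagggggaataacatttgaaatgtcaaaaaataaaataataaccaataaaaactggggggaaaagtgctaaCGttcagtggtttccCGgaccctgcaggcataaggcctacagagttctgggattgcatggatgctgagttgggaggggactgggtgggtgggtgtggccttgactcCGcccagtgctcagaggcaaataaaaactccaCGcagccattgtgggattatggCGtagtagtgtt
Sohlh2: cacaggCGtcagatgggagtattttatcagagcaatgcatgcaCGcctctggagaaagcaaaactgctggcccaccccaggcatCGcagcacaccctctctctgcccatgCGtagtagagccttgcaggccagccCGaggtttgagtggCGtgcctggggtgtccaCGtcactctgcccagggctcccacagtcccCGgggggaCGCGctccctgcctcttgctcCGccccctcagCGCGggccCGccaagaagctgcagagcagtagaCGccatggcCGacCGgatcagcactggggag
Spp1: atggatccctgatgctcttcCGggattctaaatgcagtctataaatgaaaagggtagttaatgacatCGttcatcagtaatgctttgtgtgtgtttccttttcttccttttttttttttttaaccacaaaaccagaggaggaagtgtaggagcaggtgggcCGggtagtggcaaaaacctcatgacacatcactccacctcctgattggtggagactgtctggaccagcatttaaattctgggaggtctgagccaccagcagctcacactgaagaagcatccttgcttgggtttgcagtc
Tcl1: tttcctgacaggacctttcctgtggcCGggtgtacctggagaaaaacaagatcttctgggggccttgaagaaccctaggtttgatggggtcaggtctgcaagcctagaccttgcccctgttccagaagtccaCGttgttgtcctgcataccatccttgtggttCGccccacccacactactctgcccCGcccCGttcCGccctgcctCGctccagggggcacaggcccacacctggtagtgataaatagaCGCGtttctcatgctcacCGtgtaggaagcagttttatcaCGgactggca

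The number of CpGs in these 300 bases was 0 for 4931408C20Rik, 3 for Spp1, 6 for Zfp640, Zfp977 and Klf17, and 7 for Pdcl2. It was 11 for Tcl1, 13 for 1700013H16Rik, 15 for Gm15455 and 17 for Sohlh2. The median promoter of a kept start had 22. The windows of Zfp640 and Zfp977, genes for zinc-finger proteins on different chromosomes, share the 13-base run tggccaatcaagg, at position 172 of the first and 180 of the second counted from the 5′ end. That run, read on both strands, is in 16 of 21262 promoter windows of protein-coding genes (0.0753%).

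Gene ends were lost less often than the rest of the genome. Of all 90260 regions in 2iL, 44.9% were not listed at 96 h, against 10.9% of gene-end regions (10.4 to 11.4) and 51.6% of regions farther than 1 kb from any gene end. The lists held 91228, 88810 and 78055 intervals for 2iL, 48 h and 96 h. Depth was read from the background that fold and p values imply, whose most frequent value was 14.2 tags in 2iL, 15.18 at 48 h and 13.99 at 96 h. Of 10 genes that mark embryonic stem cells, 9 had a gene-end region in 2iL and all 10 at 48 h and at 96 h. Markers of other cell types also had such regions. For extraembryonic endoderm the count was 9 of 16 genes in 2iL, then 11 at 96 h, for trophoblast 10 of 16 at both times, and for fibroblasts 8 of 14 and then 9. An open gene end does not show that a gene is expressed, so these counts do not measure the presence of such cells.

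The lost regions lay mostly at the far ends of genes, whereas kept regions lay mostly at starts. The start of a gene could be told from its far end for 1290 lost regions (78.9%) and 10605 kept regions (79.6%), whose genes have a strand in the RefSeq promoter table. Of these, 483 lost regions were nearest to a start, 37.4% (34.8 to 40.1), and 807 to a far end. Among kept regions 9411 were nearest to a start, 88.7% (88.1 to 89.3), and 1194 to a far end. Read the other way, 4.88% (4.47 to 5.32) of 9894 starts open in 2iL were lost, and 40.3% (38.2 to 42.5) of 2001 far ends. The loss at far ends was thus closer to the 51.6% of regions farther than 1 kb from any gene end than to the loss at starts.

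**Figure D1:**
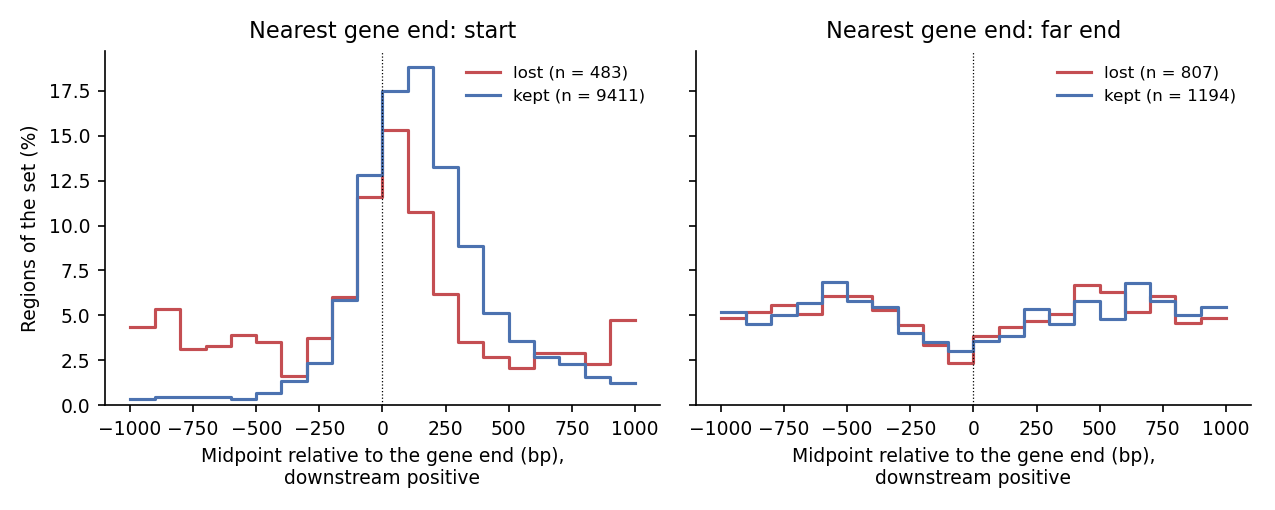
Position of the midpoint of each lost (red) and kept (blue) region relative to its nearest gene end, in bins of 100 bp, as a percentage of the regions of each set, with downstream positive. At starts (left) kept regions gather just downstream, with 18.8% in the bin from 100 to 200 bp, and lost regions have a like peak, with 15.3% from 0 to 100 bp, over a broad floor on both sides; at far ends (right) both sets are spread over the window, thinner at the end itself, with no bin above 6.87%.

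At starts, 27.3% (23.4 to 31.5) of lost and 30.4% (29.4 to 31.3) of kept regions had their midpoint within 100 bp of the end. Lost starts included many more that lay to the side. Their median distance was 262 bp, against 177 bp for kept starts. At far ends the median distances were 540 bp for lost and 542 bp for kept regions, and 48.3% and 49.1% of the midpoints were inside the gene. Position around a far end therefore did not separate lost from kept regions. A region overlapped a RefSeq promoter window of any gene at 7 of the 807 lost far ends and 84 of the 1194 kept ones, 0.867% and 7.04%.

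Of the 483 lost starts, 255 overlapped a promoter window and 228 did not. The latter lay beside a window or at starts for which the table has none, and 107 of the 228 belonged to a gene with a window at its outermost start. Of 9088 starts in 2iL that overlapped a window, 2.81% (2.48 to 3.17) were lost, and of 806 that did not, 28.3% (25.2 to 31.5). Of the 255 regions over a window, 13 had another region within 1 kb of the same end at 96 h, and 204 (80.0%, 74.6 to 84.7) belonged to a gene with no region at either end at 96 h. Of the 228 that overlapped no window, 105 (46.1%, 39.5 to 52.8) had another region at the same end at 96 h. Further, 99 of the 228 had a 96 h interval within 500 bp of their edge, against 21 of the 255.

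Over all 1548 genes with a lost region, 571 had no region within 1 kb of either end at 96 h, or 36.9% (34.5 to 39.3). This was 63.4% (58.9 to 67.8) of the 473 genes with a lost start and 21.5% (18.7 to 24.6) of the 781 genes with a lost far end. Genes that lost a far end mostly had an open start in 2iL and at 96 h. Of the 781, 598 had a region at the start in 2iL, and 32 of those 598 starts (5.35%) had none at 96 h. Over all start regions in 2iL, 4.88% were lost, a share of regions and not of genes. These shares differ in measure, since a start can lose a region and keep another. Of the 483 lost start regions, 118 had another region within 1 kb of the same end at 96 h. Only 85 genes had 2 or more lost regions, and 2 had 3, Ankrd55 and Smco4. The other genes with the most lost regions, by the summed 2iL fold of their 2 regions each, were Gbgt1, Tmem156, Foxi1, Htra3, Agrp (which encodes agouti-related protein) and C130073F10Rik. At Foxi1, a forkhead factor gene on chromosome 11, the start (34207743 to 34208302) had a fold of 12.2 and the far end (34204340 to 34204940) of 9.22 in 2iL. Both were gone at 48 h, and the gene had no region at either end at 96 h.

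The lost regions were weaker and narrower than kept ones within the 2iL list. Fold enrichment at the summit, which is the authors' value, had a median of 5.96 in lost regions, from 1.89 to 40.8, with an interquartile range of 4.33 to 8.03. In kept regions the median was 12.3, from 1.93 to 31.7. The median width was 598 bp for lost and 1061 bp for kept regions. The interval score was at its ceiling of 1000 in 59.8% of lost and 95.8% of kept regions. The recovered pileup at the summit, known for 1550 lost regions, had a median of 174 tags and a range of 62 to 745. A weak region can drop off a list with a small change in signal, and the lists do not give the signal of unlisted regions. Across the 1 kb limit of the rule, the 3 lost regions just inside lay 998.5, 999 and 999.5 bp from Fam13a, Adgrg5 and Prelid3a with folds of 14.7, 7.78 and 9.72. The 3 just outside, 1000.5, 1001.5 and 1002 bp from Gm35549, Kif2a and Ube2j2, had folds of 3.73, 4.54 and 4.41.

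The contrast between starts and far ends held at each strength. In the weakest quartile of gene-end regions by 2iL fold, up to 7.52, 18.8% (17.1 to 20.7) of starts and 49.4% (46.5 to 52.4) of far ends were lost. In the second quartile, up to 11.6, these were 3.78% (3.05 to 4.64) and 34.6% (30.5 to 38.8). The third quartile, up to 15.8, had 1.40% (0.995 to 1.90) and 18.4% (13.6 to 24.1). In the strongest, 17 of 2956 starts were lost, 0.575% (0.335 to 0.919), and 14 of 95 far ends, 14.7% (8.30 to 23.5). Median 2iL folds were alike in the 2 kinds of lost region, 5.94 at starts and 5.92 at far ends. Among kept regions they were 13.0 at starts and 7.65 at far ends.

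**Figure D2:**
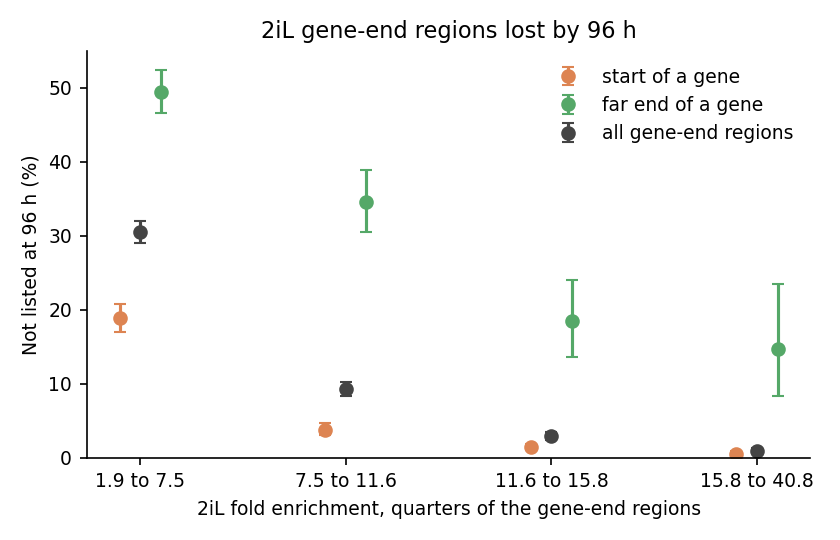
Share of 2iL gene-end regions not listed at 96 h (y axis, percent) in 4 quartiles of their 2iL fold enrichment (x axis), for starts (orange), far ends (green) and all gene-end regions, which include those of unknown strand (dark grey); bars are exact 95% binomial intervals. The share was lower with higher fold in each set, and far ends were above starts in every quartile, at 49.4% against 18.8% in the weakest and 14.7% against 0.575% in the strongest.

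Lost starts that overlapped a promoter window mostly had CpG-poor promoters. The 228 lost starts that overlapped no window were not measured. The CpG ratio of a window is the number of CpG dinucleotides over that expected from its C and G content. A window that overlapped the region was found for 250 distinct promoters at lost starts and 8726 at kept starts. The median ratio was 0.28 at lost starts, with an interquartile range of 0.19 to 0.45, and 0.77 at kept starts, from 0.61 to 0.91. Ratios under 0.5 were found in 198 of 250 lost promoters, 79.2% (73.6 to 84.1), in 15.1% (14.4 to 15.9) of kept promoters and in 45.6% of all 21262 windows of coding genes. GC content had medians of 53.0%, 62.3% and 56.3%. The difference was also present at like strength. Among promoters whose 2iL fold lay in the interquartile range of the lost starts, 96 of 116 lost (82.8%, 74.6 to 89.1) and 301 of 1378 kept (21.8%, 19.7 to 24.1) had a ratio under 0.5.

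Among starts that overlapped a window, set out by CpG ratio, 26.3% (22.1 to 30.9) of 403 with a ratio under 0.25 were lost. The share was 8.24% (6.70 to 10) for 1116 starts from 0.25 to 0.5, 1.34% (0.937 to 1.84) for 2695 from 0.5 to 0.75, and 0.336% (0.192 to 0.545) for 4762 at 0.75 or above. In the weakest quartile by 2iL fold, 29.4% (24.8 to 34.2) of 378 starts with a ratio under 0.5 were lost and 3.30% (2.24 to 4.67) of 910 with a higher one. In the strongest quartile these were 8 of 374, 2.14% (0.928 to 4.17), and 5 of 2489, 0.201% (0.0653 to 0.468). A CpG-rich start was thus seldom lost even when its region was weak.

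**Figure D3:**
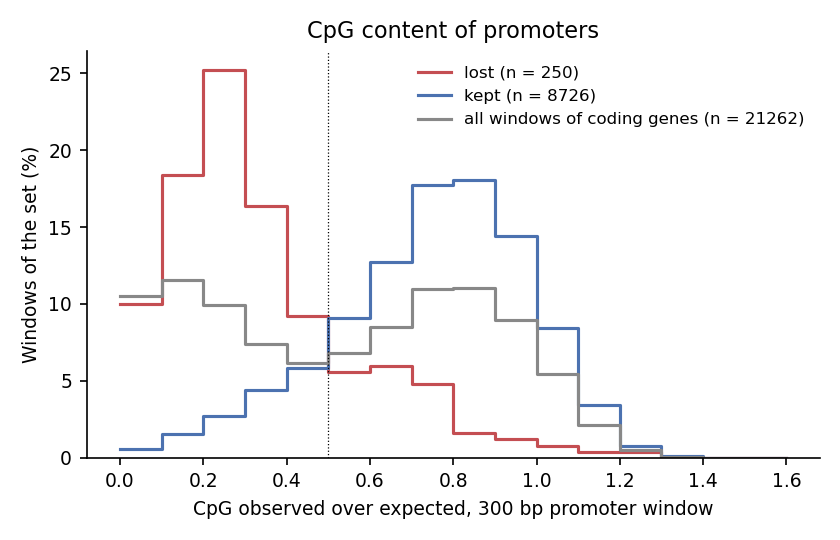
Distribution of the CpG ratio (observed over expected, x axis) of 300 bp promoter windows, as a percentage of the windows of each set, for 250 promoters at lost starts (red), 8726 at kept starts (blue) and all 21262 windows of coding genes (grey); the last bin also holds any ratio above it and the dotted line is at 0.5. Lost promoters sit at the low end with a median of 0.28, kept promoters at the high end with a median of 0.77, and the full table has both modes.

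Short sequence motifs differed in part as base content did. Each was searched as exact letters on both strands of the windows, where N is any base, and a match is no evidence that a factor binds. Of 21 motifs, 9 had intervals in lost and kept windows that did not overlap, and all 9 are given. Lower at lost starts were 3, each of which holds a CpG. The GC box of SP and KLF factors, GGGCGG, was in 28.0% (22.5 to 34.0) of lost, 70.2% (69.2 to 71.2) of kept and 46.2% of all windows. The ETS motif CCGGAAGT was in 2.80% (1.13 to 5.68), 7.90% and 5.15%, and the cAMP response element TGACGTCA in 1 of 250 lost windows, 3.42% of kept and 2.23% of all. The 6 others were higher than at kept starts. The AP-1 motif TGANTCA was in 10.4% (6.91 to 14.9) of lost, 4.07% (3.66 to 4.50) of kept and 6.99% of all windows. The letters CCAG as a pair on 1 strand, 6 bases apart, bound by CP2 factors such as TFCP2L1, were in 7.20% (4.32 to 11.1) of lost windows, with 3.87% (3.48 to 4.30) of kept and 3.49% of all. The nuclear receptor half-site AAGGTCA, here called the ESRRB core though not specific to ESRRB, was in 6.8% (4.01 to 10.7), 2.52% (2.2 to 2.87) and 4.08%. The ZIC motif CAGCAGG was in 15.6% (11.3 to 20.7), 10.6% (9.93 to 11.2) and 10.5%. The SOX motif CATTGT was in 10.8% (7.24 to 15.3), 6.39% (5.89 to 6.93) and 11.0%, and the TATA box TATAAA in 12% (8.24 to 16.7), 6.14% (5.65 to 6.67) and 12.6%, so for SOX and TATA the lost windows were close to all windows. The lost intervals of the ETS motif, the AP-1 motif and the ESRRB core also contained the share over all windows. For the other 12 motifs the intervals overlapped. They included the KLF4 site GGGTGTGG, in 7.20% (4.32 to 11.1) of lost and 3.94% (3.54 to 4.37) of kept windows. The longer ESRRB motif TCAAGGTCA, which contains that core, was in 1 of 250 lost windows, 0.400%, with 0.229% of kept and 0.334% of all. The POU octamer ATGCAAAT was in 2.00%, 1.48% and 1.66%, and the TCF/LEF motif ATCAAAG in 2.40%, 2.2% and 3.22%. At like strength, among the 116 lost and 1378 kept promoters described above, fewer motifs had intervals apart. The GC box was in 26.7% (18.9 to 35.7) of lost and 67.6% (65.1 to 70.1) of kept windows. The AP-1 motif was in 12.1% (6.76 to 19.4) and 4.93% (3.85 to 6.21), and the CP2 pair in 12.1% (6.76 to 19.4) and 4.50% (3.47 to 5.73). For the rest of the 9 motifs the intervals overlapped. With 116 lost windows in place of 250 the lost intervals are wider, so overlap alone does not show that a difference was absent. The shares still differed in the same direction. In lost and kept windows they were 13.8% and 7.40% for the TATA box and 7.76% and 3.05% for the ESRRB core. They were 10.3% and 6.89% for the SOX motif and 16.4% and 12.05% for the ZIC motif. The ETS motif had 1.72% and 5.37%, and the cAMP response element 0% and 3.12%.

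The time of loss was not fixed by the rule. Of the 1635 lost regions, 670 were still listed at 48 h, 41.0% (38.6 to 43.4), and 965 were already gone. Of 38887 regions lost by 96 h away from gene ends, 32.1% (31.6 to 32.6) were still listed at 48 h. For comparison, 7.21% of all gene-end regions in 2iL, and 33.2% of all 2iL regions, were missing at 48 h. Regions at gene ends lasted longer at like strength too. In the 4 quartiles of their 2iL fold, from weak to strong, 34.0%, 35.9%, 41.4% and 52.6% of lost gene-end regions were still listed, against 23.3%, 24.8%, 29.1% and 41.5% of lost regions elsewhere with folds in the same ranges. None of these 4 pairs of intervals overlapped. In the strongest quartile, 89 of 131 lost starts were still listed, 67.9% (59.2 to 75.8), and 75 of 189 lost far ends, 39.7% (32.7 to 47.0). That share at far ends was close to the 41.5% (40.7 to 42.3) of lost regions elsewhere in the same range. In the other quartiles the intervals of starts and far ends overlapped. There, from weak to strong, 31.3%, 36.7% and 41.3% of lost far ends were still listed.

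Promoters that stayed until 48 h had more CpGs than those that left earlier. The median CpG ratio was 0.37 in 135 windows still listed at 48 h and 0.25 in 115 windows already gone. A ratio under 0.5 was found in 71.9% (63.5 to 79.2) of the former and 87.8% (80.4 to 93.2) of the latter. The SOX motif CATTGT was in 5.19% (2.11 to 10.4) of windows still listed and 17.4% (11.0 to 25.6) of those already gone. The CP2 pair was in 4 of 135 and 14 of 115, 2.96% (0.813 to 7.41) and 12.2% (6.82 to 19.6), and the AP-1 motif in 7.41% (3.61 to 13.2) and 13.9% (8.17 to 21.6). For these last 2 motifs the intervals overlap. The 3 were picked after their shares were seen.

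Of the 8 strongest lost regions still listed at 48 h, 7 lay at starts. Fold values of different lists are given side by side and not compared, since each is relative to its own list. The region at Zfp640 (chromosome 13, 66680718 to 66681173, 142 bp from the start) had the highest 2iL fold of all lost regions, 40.8, and 20.3 at 48 h. Next came Gm15455 (chromosome 1, 33837998 to 33839509) with 25 and 16.6, and Gm20385 (chromosome 5, 104661962 to 104662659) with 23.2 and 11.1. Nckap1l, which encodes a blood-cell subunit of the WAVE actin-regulating complex, had 22.3 and 12.6, and Zfp977 22.1 and 15.8. Pdcl2, a phosducin-like gene of male germ cells, had 19.4 and 19.7, Fbxw10 19.3 and 7.73, and 1700013H16Rik on the X chromosome 18.7 and 9.40. Of these 8 genes, 6 had no region at either end at 96 h, and Nckap1l and Fbxw10 did have one. Zfp640, Zfp977, Gm15455 and Gm20385 are zinc-finger genes or predicted models, and reads from near-identical copies of such genes may have been placed at the wrong one, since how reads with several matches were handled is not stated.

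Among regions found in 2iL and not at 48 h, the strongest were more mixed in place. Ang2, of the angiogenin ribonuclease family (chromosome 14, 51195502 to 51196340), had a 2iL fold of 23.7, the start of 4931408C20Rik (chromosome 1, 26686962 to 26687771) 19.4, and Kctd4 (chromosome 14, 75954770 to 75955256) 18.2. These 3 genes had no region at either end at 96 h. The far ends of Gin1, Thap12 and Cep78, the last of which encodes a centrosomal protein, had 17.5, 17.3 and 16.9. The start of Xaf1, which encodes a partner of the apoptosis inhibitor XIAP, had 17.2, and an end of Mrpl13, for a protein of the mitochondrial ribosome, 16.6. These last 5 genes kept a region at an end at 96 h.

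**Figure D4:**
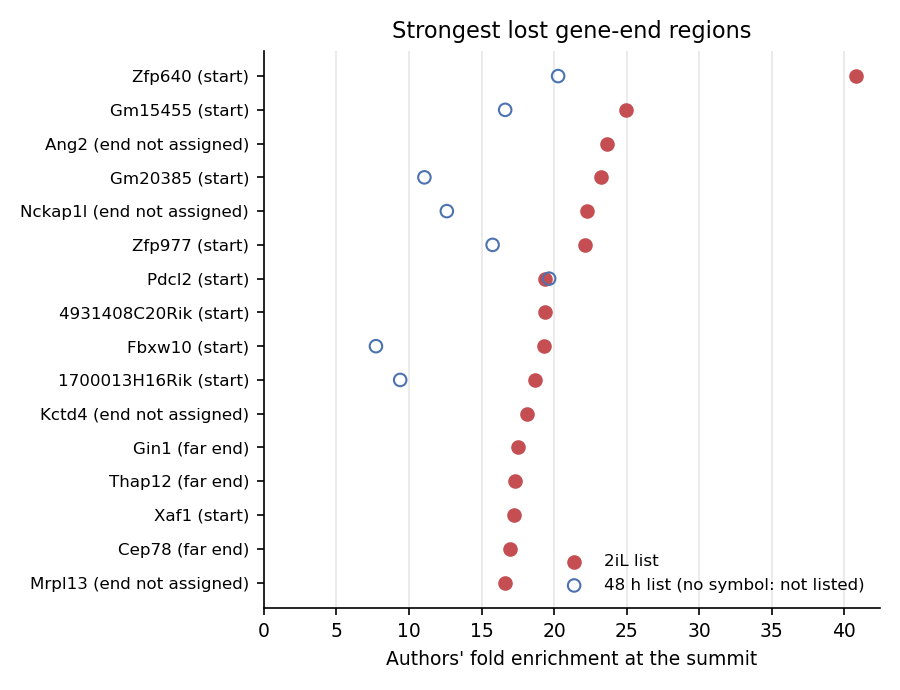
The authors' fold enrichment (x axis) of the 8 strongest lost regions still listed at 48 h and the 8 strongest already gone, by gene and kind of gene end, in the 2iL list (red) and, where listed, the 48 h list (open blue). All 16 lie between 16.6 and 40.8 in 2iL, and none was listed at 96 h; folds of different lists are shown side by side and are not on a common scale.

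Of 24 gene-end regions of naive pluripotency genes in 2iL, 10 were lost, 41.7% (22.1 to 63.4), against 10.9% over all gene-end regions. The 24 had a median 2iL fold of 5.61, and 11 were at starts. In the quartile of all gene-end regions lowest in fold, up to 7.52, 30.5% were lost, which lies within the wide interval above. Not all of the 24 were in that quartile, and whether fold accounts for their share was not tested. The 10 lost regions had a median fold of 3.55. The highest was the start of Spp1, which encodes the secreted protein osteopontin (chromosome 5, 104434015 to 104435311), with 11.1 in 2iL and 9.68 at 48 h. The start of Tcl1, a coactivator of AKT kinase (chromosome 12, 105221844 to 105223373), had 7.85 and 6.03. Neither gene had a region at an end at 96 h, nor did the adhesion gene Pecam1 (fold 5.87, gone at 48 h) or Dppa3, a factor that protects methylation marks in the early embryo (3.45, gone at 48 h). The other 6 were at genes that kept a region at an end.

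Zfp42, whose protein REX1 is a reporter of the naive state, had 2 lost regions around its far end, 43294279 to 43294558 and 43295689 to 43296332 on chromosome 8. Their 2iL folds were 4.18, from 245 tags, and 3.64, from 250 tags, and the second had 8.31 at 48 h. The far end of Fgf4, the FGF ligand that drives exit from the naive state, had 3.4 from 402 tags. Prdm14 and Tbx3, transcription factors of the naive state, had 3.17 and 2.29, and both had another region at the same end at 96 h. Dppa5a had 2.66. Folds this low with so many tags mean that the local background was high.

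General pluripotency genes lost 3 of 15 gene-end regions, 20% (4.33 to 48.1). These were at Dppa2 (6.08 in 2iL and 5.01 at 48 h), at the far end of Nodal, a TGF-beta family ligand (3.96, gone at 48 h), and at Gdf3, another such ligand (3.58 and 2.92). Formative and primed genes lost 1 of 20, 5% (0.127 to 24.9), at Cdh2, which encodes N-cadherin (7.56, gone at 48 h). For lists with no loss, the limit given is 3 counts of the total, which is lower than the upper end of the exact interval. LIF/STAT3 targets lost 0 of 18, which allows a share of up to 16.7% (exact upper end 18.5%), WNT/beta-catenin targets 0 of 17 (up to 17.6%, exact 19.5%), Hox genes 0 of 26 (up to 11.5%, exact 13.2%), and mesoderm and primitive streak genes 0 of 14 (up to 21.4%, exact 23.2%). The 2-cell-like list had only 2 gene-end regions in 2iL and lost neither.

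Germ-cell genes whose promoters are known to be silenced by DNA methylation lost 5 of 17 regions, 29.4% (10.3 to 56.0), an interval that contains the 10.9% over all gene-end regions. All 5 were still listed at 48 h, as were 41.0% of all lost gene-end regions. The start of Syce1, for a central element of the synaptonemal complex that pairs meiotic chromosomes, had 12.6 in 2iL and 14.3 at 48 h. Hormad1, of the meiotic chromosome axis, had 7.17 and 8.96, and Tex12, another central element, 4.87 and 9.09. The end of the X-linked meiotic gene Tex11 had 7.24 and 8.72, and the far end of the dipeptidase gene Dpep3 had 4.33 and 8.44. Syce1, Tex12 and Tex11 had no region at either end at 96 h. The promoters of the 3 lost starts were not poor in CpG, with ratios of 0.62 at Syce1, 0.71 at Hormad1 and 0.91 at Tex12.

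The lost starts of 8 germ-cell genes outside that list were picked after their values were seen, among those still listed at 48 h, so their timing is no result. None of the 8 genes had a region at an end at 96 h. Klf17, a Krüppel-like factor of oocytes and early embryos, had 18.4 in 2iL and 5.81 at 48 h. Sohlh2, a basic helix-loop-helix factor of early germ cells, had 16.2 and 11.8, Tdrd12, of the piRNA pathway that silences transposons, 15.7 and 17.6, and Cyct, the testis form of cytochrome c, 16.2 and 16.8. The meiotic kinase gene Aurkc had 10.2 and 15.0, and H2bc1, a testis form of histone H2B, 11.9 and 14.1. Rpl10l and Rpl39l, testis paralogues of ribosomal protein genes, had 13.6 and 13.1, and 9.87 and 6.31. Their CpG ratios were not uniformly low. They were 0.38 at Klf17 and Aurkc, 0.41 at Tdrd12, 0.45 at H2bc1, 0.47 at Cyct, 0.54 at Sohlh2, 0.64 at Rpl10l and 0.84 at Rpl39l. Lost starts of other germ-cell genes were already gone at 48 h, among them Nlrp4a, of an oocyte gene family (10.7 in 2iL), Spz1, a spermatogenic factor (8.35), Khdc3, of the maternal complex of the egg (7.69), and Hsf2bp, of meiotic recombination (3.17), picked in the same way.

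**Figure D5:**
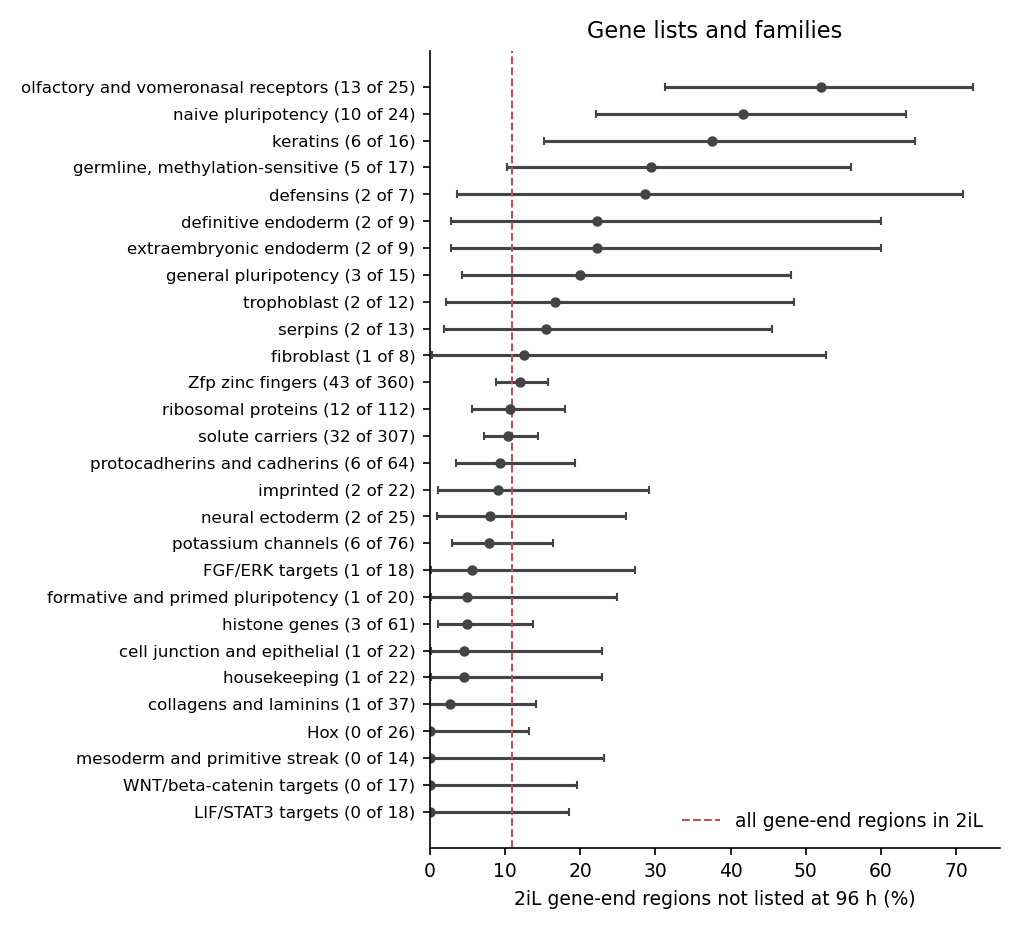
Share of 2iL gene-end regions not listed at 96 h (x axis, percent) for each gene list and gene family with at least 7 such regions, with the counts beside its name; bars are exact 95% binomial intervals and the dashed line is 10.9%, the share over all gene-end regions. Olfactory and vomeronasal receptors (13 of 25), naive pluripotency (10 of 24) and keratins (6 of 16) have intervals wholly above the line. The line is not matched to the lists for kind of gene end or 2iL fold.

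Families defined by their symbols differed in the same measure. Olfactory and vomeronasal receptor genes, which few cells outside the nose express, had only 25 open ends in 2iL from 1463 genes, and lost 13 of them, 52.0% (31.3 to 72.2). The strongest were at Olfr13 (13.0 in 2iL, gone at 48 h), Olfr52 (9.97, gone at 48 h) and Olfr1495 (9.67 and 7.97 at 48 h). Keratin genes lost 6 of 16, 37.5% (15.2 to 64.6), led by the start of Krt23 (11.0), Krt81 (7.37) and Krt16 (6.51). Only 10 of the 25 receptor regions and 5 of the 16 keratin regions were at starts. Of those starts, 6 of 10 and 3 of 5 were lost, against 4.88% over all starts in 2iL. Over all regions of each family, the median 2iL folds were 8.20 and 7.61. The 40.3% loss over all far ends lies within both intervals, and whether kind of end or strength accounts for these shares was not tested. Zfp zinc-finger genes lost 43 of 360, 11.9% (8.78 to 15.8), ribosomal protein genes 12 of 112, 10.7% (5.66 to 18), and solute carriers 32 of 307, 10.4% (7.24 to 14.4), close to the 10.9% over all. Collagen and laminin genes lost 1 of 37, 2.70% (0.0684 to 14.2), at the far end of Col9a2. Both lost serpin regions, of 13, were starts, at Serpinb5, which encodes maspin (15.3 in 2iL and 30.4 at 48 h), and Serpinb6c (13.4 and 16.1).

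The remaining lists lost 1 or 2 regions each. Neural ectoderm genes lost 2 of 25, at the far end of Nes, for the intermediate filament nestin (6.92 in 2iL and 3.17 at 48 h), and at the start of Olig3 (4.88), which had another region at that end at 96 h. FGF/ERK targets lost 1 of 18, at Dusp14 (3.90), housekeeping genes 1 of 22, at Ppia (2.79), and imprinted genes 2 of 22, both at Slc22a18 (6.0 and 4.45). Cell junction and epithelial genes lost 1 of 22, at Pkp2 (5.38). Of marker lists for other cell types, extraembryonic endoderm lost 2 of 9, both at Ttr (5.99 and 5.53), trophoblast 2 of 12, at Tfeb (2.97) and Tfap2c (2.88), and fibroblast 1 of 8, at S100a4 (9.14). Each of these intervals contains 10.9%.

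All chromosomes but the Y had lost regions. The share of gene-end regions lost ran from 8.89% (6.95 to 11.2) on chromosome 6 to 14.2% (12.3 to 16.3) on chromosome 7, with 8.97% on the X chromosome, and 0 of 5 on the Y chromosome. The intervals of chromosome 7 and of chromosome 5, with 13.5% (11.4 to 15.8), lay wholly above the 10.9% over all. Those of the other chromosomes contained it. Regions whose nearest gene end lay 1 to 100 kb away, at a gene with a lost start, were lost about as often as others. Of 1597 such regions 50.8% (48.3 to 53.3) were gone at 96 h, of 3240 near genes with a lost far end 52.9% (51.1 to 54.6), and of 65172 near any gene 50.5%. Predicted genes and clone names (Gm and Rik) made up 9.52% (7.06 to 12.5) of lost starts and 2.51% (2.2 to 2.84) of kept starts.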

How the data were processed

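ATAC-seq peak lists were analysed, 1 for each group of 2 samples. Per the labels, both samples of a group are described by the same list, so the authors had combined them. Per the submitters' processing notes, the tools were Picard, SAMtools, BWA and bcl2fastq 2.20.0.422, on mm10. How peaks were called, reads shifted and duplicates treated was not given in the sources used here, and these steps could change which weak regions are listed. Deposited values are, per summit, a linear fold ratio and a −log10 p (and a −log10 q, not used), and, per interval, a score. Where an interval had several summits, the one highest in −log10 p gave its values.

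Depth was recovered from the deposited fold, (k + 1) / (background + 1), and the Poisson tail, which gave a whole k within 0.02 for 100% of intervals with a −log10 p under 290. These are 79.6%, 76.0% and 73.6% of the 3 lists. Gene ends came from an NCBI RefSeq table of GRCm38.p6 (21883 protein-coding genes), and strand and promoter windows from RefSeq promoter sequences (17491 genes). Regions were not assigned to exons, introns or UTRs. Of 312 entries in 17 gene lists, 310 matched a gene. Another 12 families were defined by symbol. The members and lists were chosen with earlier results of these data known.

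The genes named were all members of 6 lists (naive, general, formative, LIF/STAT3, 2-cell-like, germline), the 8 strongest by 2iL fold among regions gone and among regions still listed at 48 h, the 8 genes with the most regions, the 8 strongest without a region at 96 h, and up to 3 per other list. From the families, histone genes, potassium channels, protocadherins and cadherins, and defensins are given here only as counts lost, 3 of 61, 6 of 76, 6 of 64 and 2 of 7. Python 3.11.15, numpy 2.4.6, pandas 2.3.3 and scipy 1.17.1 were used, and merging, distances and tag recovery were tested on simulated data. Alternatives were the distance, the summit, absence, overlap, list limits and gene models.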

Additional observations from a re-analysis of the deposited data

How the results depend on the processing

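Over 50 comparisons of a result with an alternative, 30 stayed within the interval of the main value (or within 1.5 times a count) and 20 did not. The cause was not tested except where the setting itself changes the number of regions. With midpoints within 500 bp of a gene end, 860 regions were lost, 7.35% of those in 2iL, and 45.7% were at starts. With 2 kb, 3266 were lost, 16.9%, of which 38.0% were still listed at 48 h, and the median fold was 5.82. Asking for no 96 h interval within 500 bp gave a lost share of 9.40%, a median fold of 6.25 and 32.8% at starts. Counting a 2iL interval as lost where 96 h intervals covered under 50% of it gave 11.8%. Lists of equal length gave 8.37% and a median fold of 6.98. Keeping only 2iL intervals above the median −log10 p gave 450 lost regions, 3.76%, a median fold of 9.62, 52.7% still listed at 48 h and 180 genes with no region at an end at 96 h. In an alternative chosen after seeing the data, a start was counted only where a region overlapped a promoter window, and 20.3% of lost regions were at starts. Kept promoters with folds in the interquartile range of the lost starts had a CpG ratio under 0.5 in 21.8% of cases. Over these settings at most 45.7% of lost regions of known strand were at starts. Leaving out samples was not possible, since the lists combine them. No paired analysis was possible because samples A and B of a group share 1 list. Depth limits the weakest regions, and a region missing from a list is not shown to be closed.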
